A study of Mus musculus with 19 samples.

Results

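These results describe 123 custom noncoding transcripts whose signal was highest in granulocytes, out of 1317 custom transcripts on a mouse array of 38391 features. A transcript was taken as a member if the highest of its 7 cell type means was the granulocyte mean and if at least 1 of its probes was well above background, by the scanner software's own test ("detected" from here on), on all 3 granulocyte arrays. The 123 members made up 9.34% of the custom transcripts. The same rule took 10.4% of all features on the array and 4.77% of its 4610 intergenic noncoding regions. The members carried 369 probes, 3 each. The sources used here give no position, gene model or sequence for them, and they are called by the array's TCONS identifiers.

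The study measured total RNA from 7 populations of adult bone marrow of C57BL/6 mice aged 8 to 12 weeks, with 1 array per sample. Stem and multipotent progenitor cells, called LSK here, were Lin- cKit+ Sca1+ (3 arrays). The 3 kinds of myeloid progenitor were Lin-, cKit+ and, in the labels' spelling, Scal-. Common myeloid progenitors (CMP, 3 arrays) were low in CD16/32 and high in CD34, megakaryocyte erythroid progenitors (MEP, 3 arrays) were low in both, and granulocyte macrophage progenitors (GMP, 2 arrays) were high in both. Early erythroblasts (2 arrays) were Ter119+, large and high in CD44, and late erythroblasts (3 arrays) were Ter119+, small and intermediate in CD44. Granulocytes (3 arrays) were taken as Gr1+ cells with no further marker in the labels. The array was made to ask how long noncoding RNAs found by RNA sequencing are expressed over these populations. The labels do not say that replicates came from separate animals, so a p-value here measures only how far these samples spread, which may be technical spread.

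Granulocytes, mostly neutrophils in the bone marrow, form from GMP by way of stages that fill first primary granules (myeloperoxidase, elastase) and later secondary and tertiary granules (lactoferrin, gelatinase). Long noncoding RNAs are transcripts without a protein product, and many are found in few cell types and at low levels. Some act on chromatin or on neighbouring genes, and most have no known function.

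Levels are given as log2 signal minus the log2 of that array's 75th percentile, averaged over the probes of a transcript, so that 0 is the brightness of the spot at that percentile. A difference of 1 is a 2-fold difference. Brightness depends on the probe, and levels are compared between samples of 1 transcript and not between transcripts. Because the members were chosen on the granulocyte mean against the other 6 types, every difference between granulocytes and another type is a description with no test.

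The granulocyte arrays stood apart from the other 16 in more than cell type. Slide 5 held 2 of them and no other cell type, while the first shared slide 2 with 1 CMP and 1 MEP array. Xist, the noncoding RNA that coats the inactive X chromosome in female cells, measured -0.27, -0.28 and -0.15 on the granulocyte arrays and was detected on none of the other 16 arrays. Ddx3y, a gene of the Y chromosome, was detected on each of those 16 arrays, between 1.49 and 2.71, and on none of the granulocyte arrays (Ddx3y was chosen after its values were seen). Other Y chromosome genes were read too. Uty was detected on the same 16 arrays and on no granulocyte array. Eif2s3y was detected on those 16 and also on 1 granulocyte array, at -4.47. Kdm5d was detected only on 1 LSK and 1 MEP array. No label gives the sex of the animals. For a difference between granulocytes and the other types, cell type and the difference in these sex-linked genes cannot be told apart.

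Markers of neutrophils and of other cells were also highest there. Of 15 genes of neutrophil secondary and tertiary granules and maturity, 13 were highest in granulocytes and 15 were detected on every granulocyte array. Of 8 macrophage genes 8, of 8 eosinophil, basophil and mast cell genes 6, of 8 B cell genes 6 and of 8 T and NK cell genes 3 were highest in granulocytes too. Ms4a1, a membrane protein of B cells, averaged 2.48 ± 0.06 (SD, n = 3) in granulocytes and -3.56 ± 0.48 (SD, n = 3) in LSK. The 6 primary granule genes were highest in GMP. Which cells within the Gr1+ sort held the members' RNA was not tested, and in bulk RNA fewer cells of a type and less RNA per cell cannot be told apart.

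Across the 123 members the granulocyte mean lay above the next highest cell type mean by a median of 0.96, from 0.01 to 7.31. The middle part of the distribution, from the first to the last quartile, ran from 0.41 to 2.24. The difference exceeded 1 in 60 members, 2 in 33, 3 in 17 and 5 in 11, and it was under 0.5 in 35. Each of the 3 granulocyte arrays was above every array of the other types in 91 members, including the 60 that differed by more than 1. Of all 38391 features 3133 (8.16%) had that order and 3991 passed the rule. As the rule itself asks for the highest mean in granulocytes, the 91 members give no support beyond it. The SD over the 3 granulocyte arrays had a median of 0.08 and a maximum of 0.47 (TCONS_00455877), and it was larger than the difference from the next cell type in 8 members. On the slide that held 3 cell types, the granulocyte array was above both the CMP and the MEP array in 122 members. These arrays were among those that chose the members, so this order was likely from the start. The granulocyte array of that slide differed from the mean of the other two by a median of -0.02 and in no member by more than 1.

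**Figure D1:**
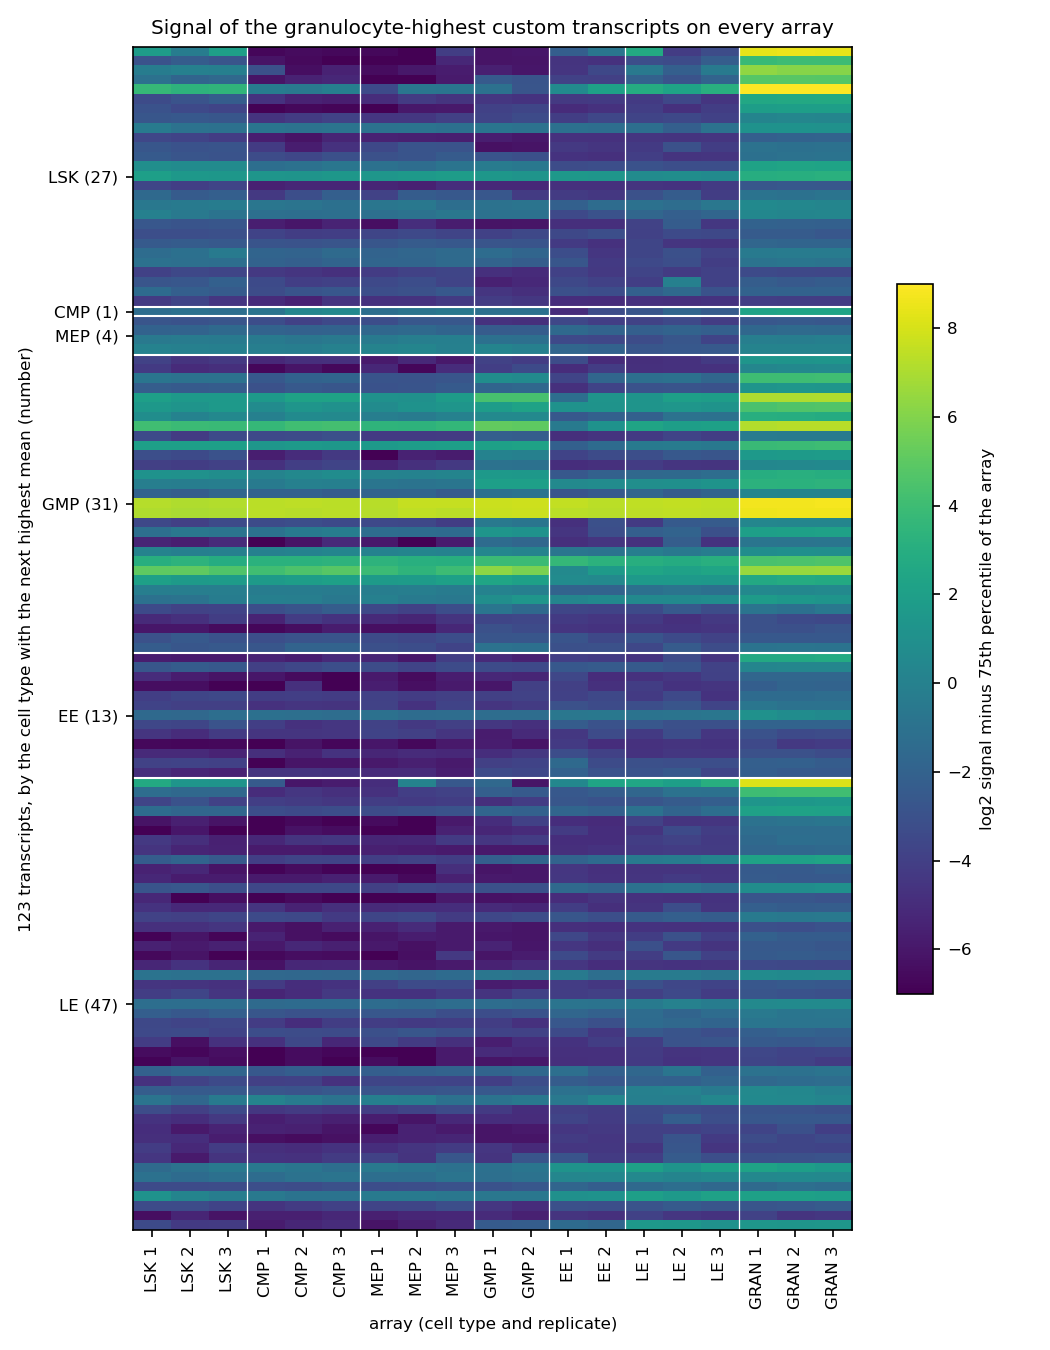
Signal of the 123 members (rows) on each of the 19 arrays (columns), as log2 signal minus the array's 75th percentile, with yellow high and dark blue low. Rows are grouped by the cell type with the next highest mean (27 LSK, 1 CMP, 4 MEP, 31 GMP, 13 early and 47 late erythroblasts) and sorted within each group by the granulocyte difference, so that the contrast between the granulocyte columns and the rest fades toward the bottom of each block.

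The 3 probes of a member mostly gave the same order. Of the 369 probes, 328 had their own highest mean in granulocytes. Each of the 3 probes did so in 90 members, 2 probes in 25 and 1 probe in 8. Among the 60 members with a difference over 1, the count with each of the 3 probes highest in granulocytes was 59. On the granulocyte arrays 112 members were detected by each of their 3 probes.

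The custom transcripts came in 4 sets, and the design text speaks of pseudogenes, of genes with small RNA overlap, and of high and low stringency long noncoding RNAs. The sources used here do not say which set is which. The members were 13 of 155 in set 1 (8.39%), 6 of 60 in set 2 (10%), 40 of 378 in set 3 (10.6%) and 64 of 724 in set 4 (8.84%). The sets differed in breadth as a description: 10 of the 13 members in set 1 were detected on every one of the 19 arrays, against 3 of 6 in set 2, 13 of 40 in set 3 and 13 of 64 in set 4. The difference from the next cell type had medians of 0.98, 1.61, 0.88 and 1.12 in sets 1 to 4.

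Most members were detected in other cell types too. In LSK 97 members were detected on every array, in CMP 79, in MEP 75, in GMP 78, in early erythroblasts 50 and in late erythroblasts 49. No array detected the member in 8 cases for LSK, 21 for CMP, 15 for MEP, 35 for GMP, 54 for early and 41 for late erythroblasts. In 39 members every array of the 7 types detected the transcript, and in 21 members granulocytes were the one type in which every array did. The erythroblast arrays were dim: their 75th percentile lay at 50.1 to 81.3 intensity units against 266 to 607 on the other 14, and the lowest signal that counted as detected was -2.81 to -2.54 there against -5.56 to -3.79. A member not detected in erythroblasts therefore has a looser bound than one not detected in progenitors, and the part of dimness in these counts was not tested.

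The largest difference belonged to TCONS_00192630. It measured 8.40, 8.54 and 8.50 in granulocytes, 1.76, -0.29 and 2.05 in LSK, -2.22 and -0.73 in early erythroblasts and 2.72, -4.16 and -3.30 in late erythroblasts. None of the CMP arrays (-6.74, -6.52 and -6.68) or GMP arrays (-6.15 and -6.04) detected it, and 1 of the 3 MEP arrays did. Granulocytes were thus 159-fold above LSK and at least 11040-fold above CMP. A bound of this kind is used where no array of the dimmer group detected the transcript: on each such array the transcript is given its own signal or the lowest signal detected there, whichever is larger, before the group is averaged. One late erythroblast array stood far above the other two.

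TCONS_00375085 had the highest granulocyte level, at 9.29, 9.21 and 9.28. Outside granulocytes it was detected on all 16 arrays, with 3.73, 3.34 and 3.46 in LSK, -0.27, -0.51 and -0.09 in CMP, -3.42, -0.73 and -0.76 in MEP, and -1.06 and -2.79 in GMP. The early erythroblasts read 0.66 and 2.07 and the late ones 2.87, 2.31 and 3.06. LSK and late erythroblasts were thus the next highest types, and CMP, MEP and GMP, which lie between LSK and granulocytes or beside them in the usual order of blood formation, were the lowest.

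In 3 other members with large differences LSK was again well above CMP and MEP, while GMP varied. Late erythroblasts were well above CMP and MEP in TCONS_00374864 and TCONS_00116308. For TCONS_00178674 the probes averaged -2.18, -1.91 and -2.73 in late erythroblasts, near the lowest signal detected on those arrays (-2.60 to -2.54). TCONS_00374864 read 6.34, 6.10 and 6.12 in granulocytes, -0.30, -0.02 and -0.10 in LSK and -0.55, -2.13 and -0.50 in late erythroblasts, and -6.50 to -3.03 in CMP, MEP and GMP. TCONS_00178674 read 4.78, 4.82 and 4.78 in granulocytes, -1.04, -1.84 and -1.62 in LSK and -2.50 and -2.82 in GMP, and it was detected on no CMP, MEP or early erythroblast array. TCONS_00116308 read 8.16, 8.17 and 8.12 in granulocytes, 2.50, 2.02 and 3.05 in late erythroblasts and 2.69, 1.36 and 1.29 in LSK. In these 3 transcripts no granulocyte array overlapped with any other array, and CMP and MEP lay below LSK on every array. TCONS_00116308 was scattered among progenitors: it ran from -4.93 to 0.17 over the MEP arrays and from -6.08 to -1.60 over the GMP arrays.

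Next to TCONS_00116308 in number stand TCONS_00116401 and TCONS_00116417, which also had differences above 5. TCONS_00116417 measured 3.81, 3.96 and 3.96 in granulocytes and -2.94, -2.36 and -2.75 in LSK. TCONS_00116401 measured 2.61, 2.67 and 2.74 in granulocytes and -3.35, -2.94 and -2.34 in LSK. Granulocytes were 96.5-fold and 46.8-fold above LSK for these transcripts, and LSK was the next highest type for both. TCONS_00019185, with 4.06, 4.07 and 4.11 in granulocytes, was 40.0-fold above late erythroblasts at -1.74, -0.94 and -1.05.

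TCONS_00490572 had the second largest difference and another shape. It measured 2.63, 2.64 and 2.78 in granulocytes and lay between -6.05 and -3.36 on the 16 other arrays. LSK, at -5.73, -5.86 and -5.87, was here the lowest of the 7 types. At least 1 probe was detected on every LSK, CMP and MEP array and on 1 of the 2 GMP arrays, and none on any erythroblast array. Its granulocyte mean was at least 43.8-fold above early erythroblasts. Xist, described above, was likewise low on all 16 other arrays and without a higher level in LSK. Whether TCONS_00490572 differs with cell type or with the sex-linked genes cannot be told apart on these arrays.

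**Figure D2:**
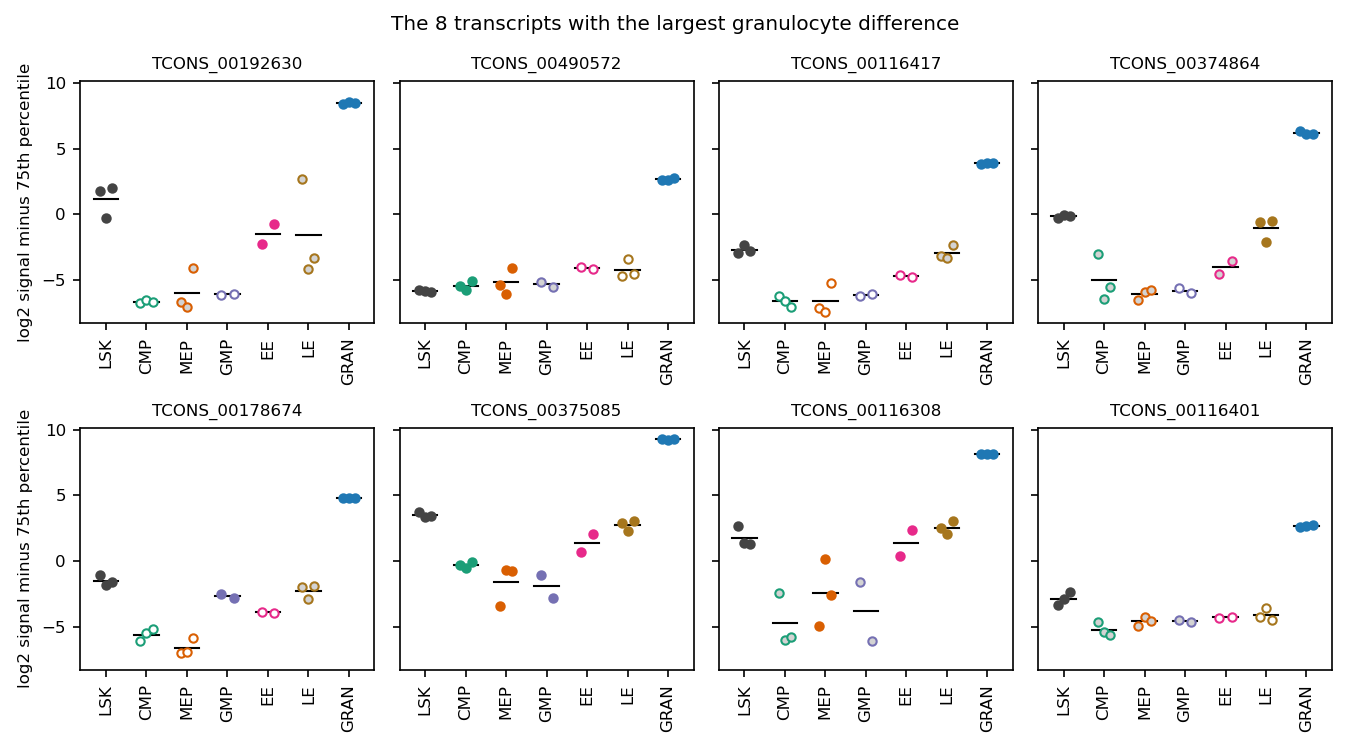
Each panel shows 1 of the 8 members with the largest difference between granulocytes and the next cell type, with a point per array and a bar at the mean; the y axis is log2 signal minus the array's 75th percentile. Filled points mark cell types whose arrays all detected the transcript, grey points those where some did and open points those where none did. LSK and late erythroblasts form a second, lower level in TCONS_00375085 and TCONS_00374864, while TCONS_00490572 is low on all 16 arrays outside granulocytes.

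Only 4 members were detected on no array outside granulocytes. TCONS_00411254 was the brightest, at -1.28, -1.27 and -1.31 in granulocytes, at least 13.8-fold above LSK, 12.7-fold above CMP, 10.7-fold above MEP and 6.61-fold above GMP, but over the dim early and late erythroblast arrays the bound was only 2.80-fold and 2.44-fold. The other three, TCONS_00234378, TCONS_00282221 and TCONS_00421108, had granulocyte means of -3.68, -3.91 and -3.98 and bounds of 2.62-, 2.24- and 2.12-fold above LSK and of 1.26-, 1.07- and 1.02-fold above GMP. These 3 means lay below the lowest signal detected on the erythroblast arrays, so no bound can be given against erythroblasts, where a missing detection says nothing about them. For TCONS_00421108 the 3 granulocyte arrays spread from -4.33 to -3.47, close to the dimmest detected signal on those arrays, which was -4.88 to -4.32.

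Some bright members were high everywhere. TCONS_00024924 (set 1) read 8.75, 8.69 and 8.75 in granulocytes and 7.10 to 7.77 on the 16 other arrays. TCONS_00470219 (set 1) read 8.59, 8.63 and 8.65 in granulocytes and 6.96 to 7.70 elsewhere. Granulocytes were 1.98-fold and 1.94-fold above GMP for these transcripts, and no granulocyte array overlapped with an array of another type. TCONS_00138337 read 7.16, 7.27 and 7.27 in granulocytes, 5.18 and 5.04 in GMP and -0.39 to 4.25 elsewhere. TCONS_00482794 read 7.02, 7.04 and 7.08 in granulocytes, 4.37 and 4.36 in GMP and -1.21 to 2.24 elsewhere. For these transcripts GMP was the second highest type without overlap. TCONS_00356415 read 6.52, 6.51 and 6.58 in granulocytes and 6.26 and 5.80 in GMP, a smaller step of 1.42-fold.

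At the edge of the rule the members hardly differed from other types. TCONS_00088725 was above LSK by 0.01, with -4.05, -4.11 and -4.17 in granulocytes and -4.21, -3.67 and -4.50 in LSK. TCONS_00472573 was above late erythroblasts by 0.02, with 1.40, 1.34 and 1.42 against 1.54, 1.45 and 1.1. TCONS_00055613 was above MEP by 0.03, with 0.13, 0.16 and 0.16 against 0.14, 0.26 and -0.05. In each of the 3 the arrays of the 2 types overlapped. Just outside, TCONS_00426718 missed the rule by 0.004 against late erythroblasts, TCONS_00342717 by 0.05 against GMP and TCONS_00182026 by 0.06 against LSK, while TCONS_00131072, TCONS_00208827 and TCONS_00215667 were highest in granulocytes with no probe detected on all 3 arrays.

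Second place among the cell types went to late erythroblasts in 47 members, GMP in 31, LSK in 27, early erythroblasts in 13, MEP in 4 and CMP in 1. Where a progenitor was second, each of its arrays detected the transcript. Where late erythroblasts were second, every array detected it in 20 members and no array in 16, and where early erythroblasts were second these counts were 5 and 4, so part of these places are values near the background of dim arrays. Among the 4 progenitor types alone LSK was highest in 55 members, GMP in 51, MEP in 12 and CMP in 5. TCONS_00185292 was the member with CMP in second place: it read 2.28, 2.32 and 2.33 in granulocytes and -0.81, 0.35 and 0.53 in CMP.

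The rule puts each of the other 6 cell type means below the granulocyte mean but does not set their order. Differences among these 6 types were tested, with a limma fit over the 16 other arrays. Benjamini-Hochberg adjustment was at 0.05 over all features tested. Transcripts brightest in one of the 6 types were left out by the rule, while the shares of all features include such features. What part this has in the members' shares was not tested. A feature was tested if every array of at least 1 of the 2 types detected it, and called if every array of the higher type did. Of the 5 comparisons, GMP against CMP, CMP against LSK and late against early erythroblasts followed neighbouring steps of development. GMP against MEP compared 2 branches, GMP against LSK spanned more than 1 step, and several comparisons share arrays.

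GMP against CMP asks what changes on the way to granulocytes. Of the 123 members 88 were tested; 32 were higher in GMP and 2 were lower, against 7.93% higher and 7.90% lower of the 22903 features tested. As shares of the tested members these were 36.4% and 2.27%, and for the other custom transcripts the shares were 5.33% and 11.8%. The median difference was 0.35 over the members tested and 0.06 over all features. The rises ran from 0.62 to 5.02 with a median of 1.69. In the 34 called members the arrays of the 2 types did not overlap. The share of all called features with that order was not counted, so this adds nothing about the members beyond the calls. On slide 3, which held both types, the 34 had the same sign, which the lack of overlap already fixes. The median over all members tested was 0.4 on that slide. Of the 6 primary granule genes 5 were higher in GMP, with a median difference of 2.87. Of the 15 neutrophil granule genes 11 were higher (median 2.76), and of the 8 eosinophil, basophil and mast cell genes 6 were (median 3.12). Other lists did not: of 8 macrophage genes 2 were higher and 0 lower (median -0.02). Of 8 monocyte and dendritic cell genes 1 was higher and 3 lower (median 0.40). Among 4 tested B cell genes 0 were higher and 1 lower, and among 6 tested T and NK cell genes 1 and 1. All 6 erythroid genes were lower (median -4.67). Which cells the members' RNA came from was not tested. Without GMP replicate 1 the calls were 20 higher and 2 lower. Under scaling by the spike-in probes they were 11 and 5, and the members' median was -0.35 with all features at -0.64, so that the sign of the median rests on the scaling.

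TCONS_00146095 had the largest rise. It measured 0.11 and -0.04 in GMP and -5.64, -4.96 and -4.36 in CMP, where 1 of 3 arrays detected it. The difference was 5.02 ± 0.41 (SE, adjusted p = 2.63e-06 by limma). MEP, at -6.97, -5.49 and -5.75, did not detect it on any array, and GMP was at least 26.7-fold above MEP (adjusted p = 2.85e-07 by limma). Granulocytes, at 1.66, 1.69 and 1.76, were 3.18-fold above GMP, and LSK lay in between at -3.17, -3.43 and -2.98. GMP and granulocytes thus stood well above the 5 other types without overlap.

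TCONS_00264115 and TCONS_00295517 likewise had GMP and granulocytes above the 5 other types on every array. TCONS_00264115 measured -0.99 and -1.04 in GMP and -4.73, -4.01 and -3.74 in CMP, a difference of 3.14 ± 0.29 (SE, adjusted p = 8.01e-06 by limma). TCONS_00295517 measured -1.43 and -1.73 in GMP and -7.21, -6.14 and -5.07 in CMP, where 1 of 3 arrays detected it (4.56 ± 0.72, SE, adjusted p = 6.30e-04 by limma). TCONS_00367597 rose by 3.15 ± 0.33 (SE, adjusted p = 2.13e-05 by limma), from -6.71, -6.42 and -5.79 in CMP to -3.00 and -3.31 in GMP, and its granulocyte arrays at -3.02, -3.10 and -2.78 overlapped with GMP. This call was lost when each transcript was read from its brightest probe. In TCONS_00264115 and TCONS_00295517 every granulocyte array was above both GMP arrays.

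The 2 members lower in GMP than in CMP were dim. TCONS_00072025 read -4.55 and -4.83 in GMP and -3.25, -2.82 and -2.69 in CMP (-1.77 ± 0.37, SE, adjusted p = 0.00503 by limma). Its probes averaged -6.2, -2.0 and -5.9 in GMP and -3.6, -1.7 and -3.5 in CMP. The fall came mostly from the 2 dim probes, which in GMP lay below the lowest signal detected on those arrays (-4.06 and -3.96). TCONS_00343047 read -4.74 and -4.87 in GMP, where no array detected it, and -3.25, -3.91 and -3.45 in CMP, which was at least 1.39-fold higher (adjusted p = 0.00397 by limma). Both calls were lost with another background correction, and the second then changed sign.

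GMP against MEP compares the granulocytic with the erythroid side. Here 91 members were tested, 35 were higher in GMP and 10 lower, against 16% higher and 12.7% lower of the 22035 features tested. That is 38.5% and 11.0% of the members tested, beside 10.5% and 19.7% of the other custom transcripts. The median difference was 0.24 over the members and 0.08 over all features. The split of 77.8% higher among the calls became 95.3% with normexp background correction (41 higher, 2 lower) and 59.1% under spike-in scaling (13 higher, 9 lower), where the members' median was -0.48 and that of all features -0.64. TCONS_00178674, described above, was at least 4.13-fold higher in GMP (adjusted p = 8.65e-06 by limma). In the other direction TCONS_00368167 read -6.27 and -6.18 in GMP, detected on neither array, and -3.56, -2.82 and -2.91 in MEP (at least 1.88-fold, adjusted p = 8.66e-05 by limma). TCONS_00293422 read -5.79 and -5.60 in GMP, again detected on neither, and -3.98, -3.35 and -3.39 in MEP (at least 1.35-fold, adjusted p = 4.00e-05 by limma), and its call was lost with normexp. These members were higher in MEP than in GMP on every array.

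GMP against LSK gave calls in both directions. Of 100 members tested 24 were higher and 30 lower in GMP, against 25.5% higher and 15.9% lower of the 23766 features tested. The share of members higher, 24.0%, was thus near that of all features, and the share lower was 30.0%, beside 21.1% of the other custom transcripts. The median was -0.16 for the members and 0.24 for all features. The split depended on the background correction and on the scaling: 44.4% of the calls were higher in the main analysis, 65.9% with normexp (27 higher, 14 lower) and 23.0% when the percentile came from the probes detected on all arrays (14 higher, 47 lower); the members' median was 0.19 with normexp. Under spike-in scaling the calls were 9 higher and 15 lower. The falls were led by TCONS_00192630, with LSK at least 36.3-fold above GMP (adjusted p = 0.00261 by limma), TCONS_00374864, with LSK at least 14.6-fold above GMP (adjusted p = 8.00e-05), and TCONS_00375085 (-5.44 ± 0.72, SE, adjusted p = 6.92e-05). TCONS_00116308 was lower by 5.62 (adjusted p = 0.0101), a call that was lost without GMP replicate 2.

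CMP against LSK ran mostly downward. Of 99 members tested 43 were lower in CMP and 3 higher, against 13.4% lower and 20.0% higher of the 24262 features tested. In shares of the members tested these were 43.4% and 3.03%, beside 15.9% and 18.8% of the other custom transcripts. The median difference was -0.53 for the members and 0.14 for all features, and -0.41 and -0.42 for the members within slides 3 and 4, the slides that held both types. In the 46 called members the arrays of both types did not overlap. Here too no share of all called features was counted, so the calls gain nothing from it. Without CMP replicate 2 the calls were 29 lower and 0 higher, and under spike-in scaling 12 lower and 0 higher, with a members' median of -0.21. The neutrophil granule genes were lower in CMP too, 13 of 15 with a median of -3.17; lactoferrin (Ltf) averaged 2.78 ± 0.49 (SD, n = 3) in CMP, 6.27 ± 0.19 (SD, n = 3) in LSK and 10.19 ± 0.08 (SD, n = 3) in granulocytes. The summed signal of the 15 genes ran from 10.42 to 10.61 on the LSK arrays, from 8.19 to 8.93 on the CMP arrays and from 13.05 to 13.20 on the granulocyte arrays (log2). Lower in CMP than in LSK were also 4 of 7 tested T and NK cell genes (median -2.19) and 4 of 8 macrophage genes (median -0.94). So were 5 of 8 eosinophil, basophil and mast cell genes (median -1.61, with 2 higher) and 3 of 8 B cell genes (median -0.61). Not all lists fell: of 6 primary granule genes 1 was higher and 0 lower (median 0.77). Of 8 monocyte and dendritic cell genes 3 were higher and 2 lower (median -0.04), and of 6 erythroid genes 6 were higher (median 3.79). What part the RNA of neutrophils or other cells has in the members' LSK level was not tested.

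The largest falls from LSK to CMP belonged to members named above. LSK was at least 69.6-fold above CMP for TCONS_00192630 (adjusted p = 9.58e-04 by limma), and at least 10.9-fold for TCONS_00178674 (adjusted p = 3.51e-06). TCONS_00116308 fell by 6.53 ± 1.37 (SE, adjusted p = 0.00253) and TCONS_00374864 by 4.84 ± 0.69 (SE, adjusted p = 1.57e-04). Of the 49 tested members that were over 2-fold above the next cell type 28 were lower in CMP, and of the 50 other tested members 15 were. This split uses the granulocyte values that chose the members. All features were not split in the same way, so nothing is drawn from these counts. TCONS_00490572 had no call, at 0.40 ± 0.43 (SE, adjusted p = 0.527).

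The 3 members higher in CMP were TCONS_00185292 (1.20 ± 0.43, SE, adjusted p = 0.0448), TCONS_00183774 (0.91 ± 0.29, SE, adjusted p = 0.0300) and TCONS_00470219 (0.31 ± 0.10, SE, adjusted p = 0.0387), by limma. All 3 calls were lost under several alternatives, and that of TCONS_00470219 changed sign under quantile normalization and under the percentile of detected probes.

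**Figure D3:**
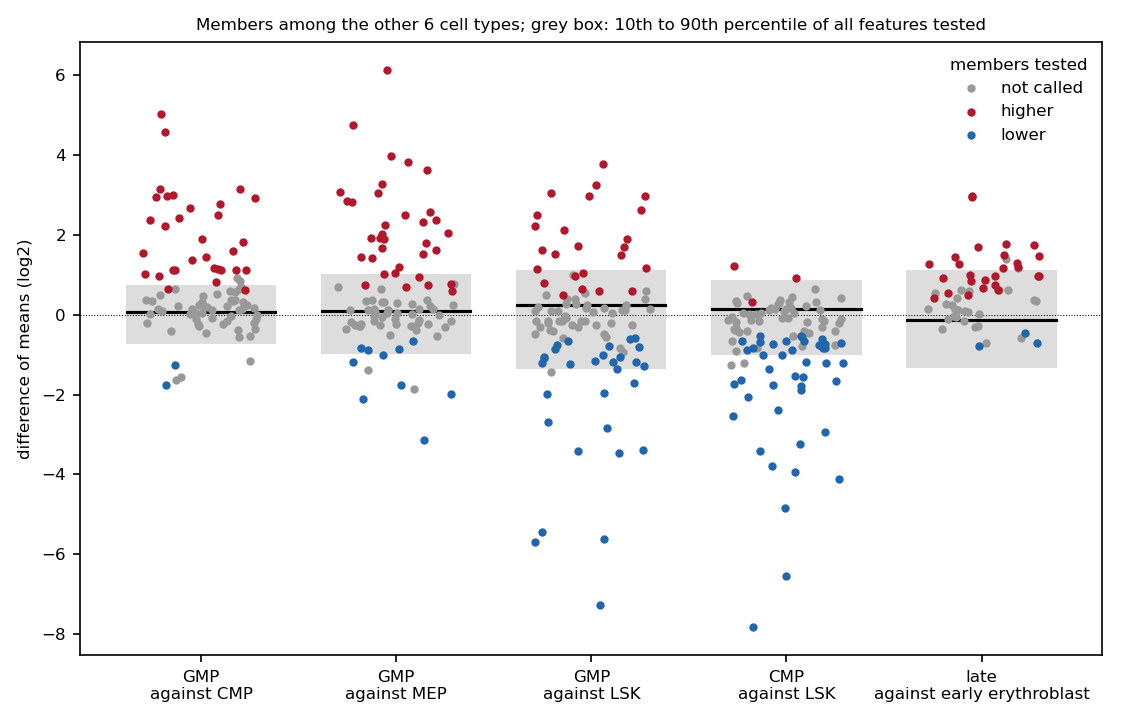
Difference of cell type means (log2) for each member tested in each of 5 comparisons that leave granulocytes out; red members were called higher and blue ones lower in the first named type. The grey box spans the 10th to the 90th percentile of all features tested and the black line is their median. The members lie mostly above 0 for GMP against CMP (32 higher, 2 lower) and mostly below it for CMP against LSK (3 higher, 43 lower).

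Late against early erythroblasts follows the last steps before the loss of the nucleus. Of 56 members tested 26 were higher and 3 lower in late erythroblasts, against 18.4% higher and 35.0% lower of the 19375 features tested. These were 46.4% and 5.36% of the members tested, beside 28.0% and 22.3% of the other custom transcripts. The median difference was 0.59 for the members and -0.13 for all features, and within slides 1 and 3 it was 0.46 and 0.60 for the members. Under scaling by spike-in probes the members' median was -0.28, that of all features was -1.0, and the calls were 2 higher and 4 lower, so the direction rests on the scaling. With normexp the calls were 9 and 2, and without early erythroblast replicate 1 they were 15 and 1. Of the neutrophil granule genes 13 of 15 were higher in late erythroblasts, with a median of 1.60 and a summed log2 signal of 11.58 to 11.74 on the late and 10.08 to 11.13 on the early arrays. Some other lists moved the same way: 6 of 6 primary granule genes (median 1.28) and 7 of 7 tested eosinophil, basophil and mast cell genes (median 1.34) were higher. So were 6 of 8 monocyte and dendritic cell genes (median 1.20). Others did not: of 3 tested B cell genes 0 were higher and 2 lower (median -1.06). Of 6 tested T and NK cell genes 2 were higher and 2 lower (median -0.99). Of 8 macrophage genes 1 was higher and 0 lower (median 0.68), and of 6 erythroid genes 1 and 3 (median -0.36). The part of any of these in the members' difference was not tested.

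TCONS_00472573 rose from -1.40 and -1.74 in early to 1.54, 1.45 and 1.1 in late erythroblasts (2.93 ± 0.33, SE, adjusted p = 1.31e-05 by limma), where it reached the granulocyte level. It also rose from CMP to GMP, by 2.97 ± 0.33 (SE, adjusted p = 3.69e-05 by limma), with -2.43 and -2.29 in GMP and 1 of 3 CMP arrays detecting it. TCONS_00374864 rose by 2.97 ± 0.77 (SE, adjusted p = 0.00534), from -4.51 and -3.55 to the values given above, a call lost without early erythroblast replicate 1. TCONS_00138337 rose by 1.73 ± 0.34 (SE, adjusted p = 7.85e-04), from -0.39 and 1.18 to 2.33, 1.97 and 2.10, and this call was lost under spike-in scaling. In these transcripts no early array reached the late ones.

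The 3 members that fell were TCONS_00055613 (-0.79 ± 0.15, SE, adjusted p = 6.10e-04), TCONS_00252175 (-0.72 ± 0.19, SE, adjusted p = 0.00587) and TCONS_00336569 (-0.46 ± 0.16, SE, adjusted p = 0.0251), by limma. Each of these calls was lost under at least 1 other scaling, probe choice or background correction. TCONS_00252175 read 1.53 and 1.38 in early and 0.71, 0.84 and 0.66 in late erythroblasts, while granulocytes read 2.98, 3.05 and 3.14.

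Of the 43 members lower in CMP than in LSK 22 were also tested between the erythroblasts, and 11 of those 22 were higher in late erythroblasts, near the 46.4% of all members tested there. Of the 123 members 52 were tested in each of the 5 comparisons, 21 in none, and 41 were called in none.

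**Figure D4:**
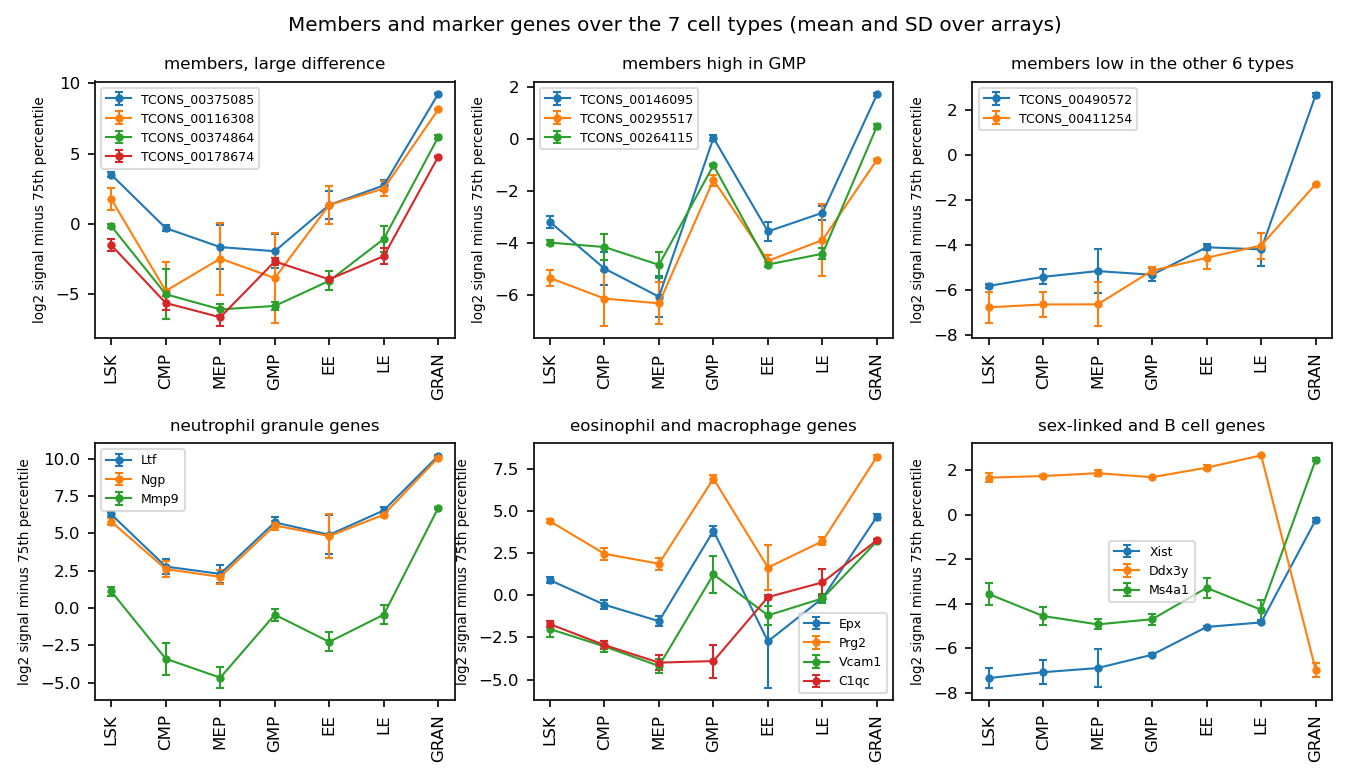
Means over arrays with SD bars for selected members (upper row) and marker genes (lower row) in the 7 cell types, as log2 signal minus the array's 75th percentile; lines join the values of 1 transcript, and levels of different transcripts are not comparable. The plotted members with large differences have lower levels in CMP and MEP than in LSK and late erythroblasts, as Ltf, Ngp and Mmp9 have. TCONS_00178674 lies near the lowest detected signal in late erythroblasts. The members high in GMP have a second peak there, as the plotted Epx, Prg2 and Vcam1 have and C1qc does not. Over their whole lists, 6 of 8 eosinophil, basophil and mast cell genes were higher in GMP than in CMP. For macrophage genes this was 2 of 8. Ltf, Ngp and Mmp9 are also higher in GMP than in CMP and MEP. TCONS_00490572, TCONS_00411254 and Xist are low in the 6 types other than granulocytes.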

How the data were processed

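The deposited values of 19 one-colour Agilent arrays are intensity values which, per the file headers, came from Agilent Feature Extraction 11.5.1.1 (protocol GE1_1105_Oct12, grid annotation mm9), which subtracts background and tests each spot against it; the labels name Cy5 and the files 1 green channel. The processed signal was put on a log2 scale and each array's 75th percentile over non-control spots was subtracted; flagged spots were dropped where a probe had another. Spots and probes of a transcript were averaged. A model of cell type means was fitted on the 16 arrays without granulocytes (limma 3.58.1, R 4.3.3) and checked on simulated data. Alternatives were normexp background correction (offset 50, on median spot signals, since the mean signal planned for it was not used here), quantile normalization, another percentile, spike-in scaling, the brightest probe, the authors' series table, all 19 arrays, slide and replicate blocks, no filter, and each array left out. Members, lists and tests were chosen with earlier results of these data known. Named were members with the 8 highest granulocyte means, the 8 largest and 3 smallest differences, the leading calls of each comparison, those detected in granulocytes alone, and the leading ones with an erythroblast type second.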

Additional observations from a re-analysis of the deposited data

How the results depend on the processing

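The 123 members became 75 with normexp background correction (68 shared), 143 with quantile normalization (120 shared), 122 with the percentile over probes detected on all arrays (115 shared) and 114 by the brightest probe (105 shared). They became 250 under spike-in scaling and 316 over the 5 types other than erythroblasts, both chosen after the data were seen. Leaving out 1 granulocyte array gave 122 to 130. Calls among members moved by over 1.5 times under spike-in scaling, from 34 to 16 for GMP against CMP, 45 to 22 against MEP, 54 to 24 against LSK, 46 to 12 for CMP against LSK and 29 to 6 in erythroblasts. They also moved to 11 with normexp in erythroblasts, to 29 with quantile normalization for CMP against LSK and to 29 with the brightest probe for GMP against MEP. Leaving out 1 array gave 22 to 33, 34 to 45, 40 to 49, 29 to 40 and 16 to 29 in that order. Signs turned for TCONS_00470219 in CMP against LSK (-0.075 with quantile normalization, -0.0294 with the percentile of detected probes), TCONS_00072025 in GMP against MEP (0.28, brightest probe) and TCONS_00343047 in GMP against CMP (0.0485, normexp). Of 546 alternatives for 36 tests of named members, 489 kept direction and call, 53 lost the call and 4 turned. The cause was not tested. Replicate numbers do not pair the samples, which lie mostly on different slides (correlations of deviations from -0.45 to 0.46). With the replicate block the members called were 31 higher and 2 lower, 35 and 10, 24 and 28, 2 and 37, and 27 and 3. With 2 or 3 arrays a type, and a dim signal in erythroblasts, small differences cannot be seen.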

Other observations

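Some members have neighbouring identifiers. Taking steps of at most 200 in the number, a distance chosen after the values were seen, 19 of the 123 members fall into 8 runs. The longest holds 4: TCONS_00116308, TCONS_00116401, TCONS_00116417 and TCONS_00116483, which were above the next cell type by 5.63, 5.55, 6.59 and 3.95. The sources used here do not say what the order of the numbers stands for. Another run pairs TCONS_00454219 (1.80 above GMP) with TCONS_00454299 and TCONS_00454316, which were above late erythroblasts by 0.79 and 0.26.

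Membership depends on the erythroblast arrays. If only the other 5 cell types are compared, a rule added after the data were seen, 316 custom transcripts were highest in granulocytes instead of 123. Of the 193 added ones, the erythroblast type with the higher mean was detected on every array in 176 and on none in 2.

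Of 14 long noncoding RNAs from the array's gene catalogue, 4 were highest in granulocytes. Mirt2 averaged 4.90 ± 0.02 (SD, n = 3) in granulocytes and -1.32 ± 0.45 (SD, n = 3) in LSK, and it was lower in CMP than in LSK by limma, at -4.98 ± 0.77 (SD, n = 3). Morrbid, known for its role in the survival of short-lived myeloid cells, averaged -0.62 ± 0.14 (SD, n = 3) in granulocytes and -1.40 ± 0.01 (SD, n = 2) in GMP, and was detected on neither erythroblast type. Mirt1 averaged 2.0 ± 0.17 (SD, n = 3) in granulocytes and -1.56 ± 0.06 (SD, n = 2) in GMP. Xist was the other.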
